A study of Mus musculus with 48 samples.

Results

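On day 15 of reprogramming, cells that overexpressed *Mettl14* together with OSKM (*Mettl14* OE) were compared with cells that overexpressed *Mettl3* together with OSKM (*Mettl3* OE). Both arms started from reprogrammable mouse embryonic fibroblasts (MEFs), cells grown from mouse embryos that carry *Rosa26*-M2rtTA, *Col1a1*-4F2A and *Oct4*-GFP. In these cells doxycycline switches on the 4 factors *Oct4*, *Sox2*, *Klf4* and *c-Myc* (OSKM), and all libraries used here had received doxycycline at 1 µg/ml in ES medium with LIF for 15 days, or 12 days or fewer where an earlier day is named. Another arm, Control OE (OSKM and the vector), served for reference levels. The series holds 48 libraries of poly(A) RNA in 16 groups, MEFs and the 3 arms on days 3, 6, 9, 12 and 15. The comparison rests on 6 of them, 3 libraries of *Mettl14* OE and 3 of *Mettl3* OE on day 15. Of 24010 genes in the deposited FPKM table (fragments scaled to the length of the transcript and to the number of mapped fragments), 11870 reached 1 FPKM in at least 3 of these 6 libraries and were tested. The labels do not state whether replicates are separate cultures, so the p-values measure only the spread between these libraries, which may be technical. The cells were harvested as a whole, so fewer cells of a type and less RNA per cell cannot be told apart in any value below.

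METTL3 and METTL14 form the core of the complex that writes N6-methyladenosine (m6A) on messenger RNA. METTL3 holds the catalytic site, and METTL14 binds RNA and supports it. Fibroblasts that are reprogrammed lose their fibroblast programme and take on an epithelial one, and a small share of them goes on to switch on the endogenous pluripotency network. Many others stall, and some of these become senescent and secrete inflammatory factors, the senescence-associated secretory phenotype (SASP).

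*Mettl14* lay at 254, 227 and 218 FPKM in *Mettl14* OE and 4.49, 4.93 and 4.48 FPKM in *Mettl3* OE. Control OE had 5.34, 4.81 and 5.796 FPKM, so *Mettl3* OE lay near the control level of this gene. *Mettl3* lay at 4.26, 3.90 and 4.67 FPKM in *Mettl14* OE and at 1078, 1358 and 1218 FPKM in *Mettl3* OE, with Control OE at 4.44, 4.64 and 5.21 FPKM. Each library thus matched its label, and the partner gene did not pass the test against Control OE in either arm (log2 difference from Control OE -0.16, limma adjusted p = 0.2 for *Mettl14* in *Mettl3* OE, and -0.13, adjusted p = 0.51 for *Mettl3* in *Mettl14* OE). In FPKM, a level per length, *Mettl3* in its own arm was higher than *Mettl14* in its own, at 1218 ± 139.7 against 233 ± 18.7 (mean ± SD, n = 3 libraries). The arms therefore differ in the level reached as well as in the gene, and these cannot be told apart. Of 9 tested members of the m6A writer complex, only these 2 passed the test, 1 in each direction. The adaptor genes *Rbm15b* (0.21, SE 0.0902, adjusted p = 0.4) and *Rbm15* (0.12, SE 0.0809, adjusted p = 0.63) did not. Of 12 m6A erasers and readers 0 passed in limma (0 at an unadjusted p under 0.05), and the largest log2 difference was in the demethylase gene *Alkbh5* (0.16, SE 0.0823, adjusted p = 0.51).

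Beyond the overexpressed pair the arms differed in few genes. A gene was called at a 1.5-fold difference of FPKM + 1 and a Benjamini-Hochberg adjusted p under 0.05 (limma on log2(FPKM + 1)). With the overexpressed genes, 39 of the 11870 genes tested (0.329%) were called higher in *Mettl14* OE and 7 (0.059%) lower. Without the fold threshold 130 genes (1.1%) passed the adjusted p as higher and 26 (0.219%) as lower. The libraries of the arms did not overlap, with *Mettl14* OE higher, for 1397 genes (11.8%), and with *Mettl14* OE lower for 433 (3.65%). At an unadjusted p under 0.05 there were 1284 genes (either sign). The median log2 difference over all genes was 0.0426, with 65.9% of the differences positive. Scaling that removed this shift left 75.7% to 77.1% of the called genes on the higher side, against 84.8% without it, and the higher side held 28 genes with median-ratio scaling and 27 with quantile normalization. Single libraries moved these counts. The higher side rose to 61 without *Mettl3* OE replicate 2, and the lower side to 16, 17 and 12 without *Mettl14* OE replicate 1, *Mettl14* OE replicate 2 and *Mettl3* OE replicate 1. At the depth estimated for the 6 libraries, 1 FPKM of a transcript with 1 kb of usable length stands for 18.15 to 25.05 fragments, with a counting error of 19.98% to 23.5%. Of the 42 called genes that remain without the overexpressed genes and 2 small RNAs at 0 in an arm, 23 had means under 5 FPKM in both arms. In 7 of the 37 increases and 1 of the 5 decreases the arm with the lower level had no library at 1 FPKM. These genes met the minimum through the other arm alone and so had to differ, as did 40 (*Mettl14* OE) and 9 (*Mettl3* OE) of all genes tested. They were *Adh1*, *Alox5ap*, *Alx4*, *Dnmt3l*, *Fbxo15*, *Mylpf* and *S100g*, higher in *Mettl14* OE, and *1110046J04Rik*, lower. Without the minimum *Alox5ap* and *Fbxo15* lost their calls.

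**Figure D1:**
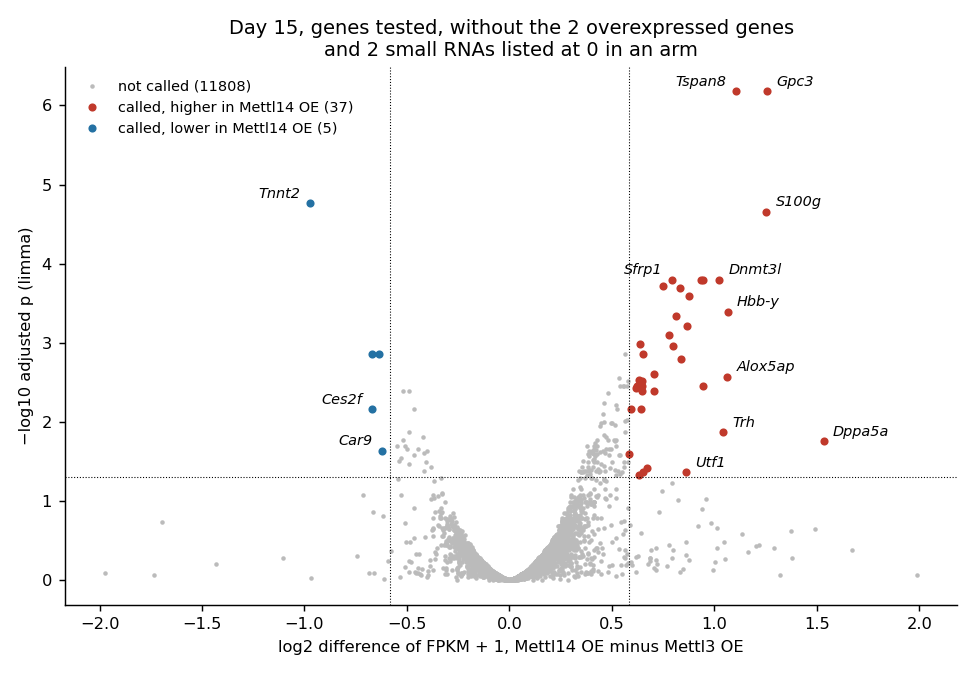
Log2 difference of FPKM + 1 on day 15 (*Mettl14* OE minus *Mettl3* OE, 3 libraries each) against −log10 of the limma adjusted p, 1 point per gene, with dotted lines at 1.5-fold and at an adjusted p of 0.05. The 37 red points (higher in *Mettl14* OE) reach a log2 difference of 1.53 (*Dppa5a*), and the 5 blue points (lower) reach -0.98 (*Tnnt2*). *Mettl14*, *Mettl3*, 2 small RNAs listed at 0 in an arm and 16 uncalled genes beyond a difference of 2 are not drawn.

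Several genes of the pluripotency network were higher in *Mettl14* OE. Of 38 listed genes 23 were tested. In these, 5 were called higher in *Mettl14* OE and 0 lower (0.329% and 0.059% of all genes), of which *Dnmt3l* and *Fbxo15* met the minimum through *Mettl14* OE alone, and the median log2 difference was 0.28, beside 0.0426 over all genes. The other 15 stayed below 1 FPKM in too many of the 6 libraries. The 5 were *Dppa5a*, which encodes an RNA-binding protein of pluripotent cells, *Dnmt3l*, the catalytically inactive partner of the de novo DNA methyltransferases, *Utf1*, a chromatin factor of embryonic stem cells, *Sall4*, a zinc-finger transcription factor of the network, and *Fbxo15*, an F-box gene active in embryonic stem cells. Promoter windows of RefSeq (GRCm38.p6, while the deposited values refer to mm9) were used for *Utf1* and *Dnmt3l*, from all chromosomes but 1. They show what the start regions of these late pluripotency genes hold. Each window runs from 250 bases before to 50 bases after an annotated start, and *Dnmt3l* has 3 such starts. Capitals mark matches, on either strand, to the octamer ATGCAAAT, the SOX motif CTTTGT, the KLF motif GGGTGTGG, the GC box GGGCGG or the E-box CACGTG, none of which contains another. The *Utf1* window lies at chr7:139943606-139943905 (plus strand), and the second *Dnmt3l* window at chr10:78049592-78049891 (plus strand).
Utf1: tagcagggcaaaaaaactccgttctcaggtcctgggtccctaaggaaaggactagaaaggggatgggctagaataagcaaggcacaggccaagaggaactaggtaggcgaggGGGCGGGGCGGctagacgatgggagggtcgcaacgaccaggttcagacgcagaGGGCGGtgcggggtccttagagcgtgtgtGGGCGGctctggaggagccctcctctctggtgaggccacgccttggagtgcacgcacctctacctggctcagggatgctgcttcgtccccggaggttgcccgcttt
Dnmt3l: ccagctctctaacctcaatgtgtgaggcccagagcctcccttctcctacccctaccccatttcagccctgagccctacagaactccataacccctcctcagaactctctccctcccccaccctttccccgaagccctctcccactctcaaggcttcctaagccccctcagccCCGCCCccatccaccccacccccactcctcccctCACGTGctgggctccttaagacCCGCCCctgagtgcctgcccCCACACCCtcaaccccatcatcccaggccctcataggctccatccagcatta
The *Utf1* window held 4 GC boxes, of which the 2 farthest upstream share a base, and the *Dnmt3l* window 2 GC boxes, 1 E-box and 1 KLF motif. The first *Dnmt3l* window held 1 GC box and the last one 1 SOX motif. Of 32851 windows of this length in the mouse table, 35.7% held a GC box, 18.7% the SOX motif, 7.15% the E-box, 3.56% the KLF motif and 1.74% the octamer. These matches are a description of the letters.

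*Dppa5a* lay at 21.8, 15.8 and 16.9 FPKM in *Mettl14* OE and 4.64, 7.41 and 4.94 FPKM in *Mettl3* OE, and all 3 *Mettl14* OE libraries stood above all of *Mettl3* OE (log2 difference 1.53, SE 0.18, adjusted p = 0.017). Control OE had 20.3, 17.6 and 18.4 FPKM, within or near the range of *Mettl14* OE. The call was lost without *Mettl14* OE replicate 3 (adjusted p = 0.076) and without *Mettl3* OE replicate 3 (adjusted p = 0.081; 2.2e-07 to 0.17 over all alternatives).
*Dnmt3l* lay at 1.90, 1.58 and 1.69 FPKM in *Mettl14* OE and 0.225, 0.608 and 0.218 FPKM in *Mettl3* OE (log2 difference 1.02, SE 0.12, adjusted p = 1.6e-04), and at 3.06, 2.01 and 2.96 FPKM in Control OE. It was called with any library left out and without the minimum on FPKM. *Utf1* lay at 2.73, 1.69 and 3.05 FPKM in *Mettl14* OE and 0.914, 1.23 and 0.583 FPKM in *Mettl3* OE (log2 difference 0.86, SE 0.17, adjusted p = 0.043), *Sall4* at 2.52, 1.83 and 1.39 FPKM in *Mettl14* OE and 0.831, 1.06 and 0.573 FPKM in *Mettl3* OE (log2 difference 0.67, SE 0.14, adjusted p = 0.038) and *Fbxo15* at 1.66, 2.23 and 1.75 FPKM in *Mettl14* OE and 0.751, 0.954 and 0.807 FPKM in *Mettl3* OE (log2 difference 0.65, SE 0.11, adjusted p = 0.0035). In each of these the arms did not overlap, as a call nearly requires, and levels were low. *Utf1* lost its call without *Mettl14* OE replicate 1 (adjusted p = 0.19), *Mettl14* OE replicate 3 (0.11) or *Mettl3* OE replicate 1 (0.21), *Sall4* without *Mettl14* OE replicate 1 (0.078), *Mettl3* OE replicate 1 (0.068) or *Mettl3* OE replicate 3 (0.053), and *Fbxo15*, at a log2 difference of 0.56, without *Mettl14* OE replicate 2. Without the minimum 2 of 38 genes were called and with a minimum of 5 FPKM 1 of 14. With median-ratio or quantile scaling 3 of the list were called, as without *Mettl14* OE replicate 1 or 3 or *Mettl3* OE replicate 1 or 3.
Of 2 more members named after their values were seen, *Lefty2*, a Nodal antagonist, came near the threshold, at 3.52, 1.78 and 2.90 FPKM in *Mettl14* OE and 0.896, 1.15 and 1.32 FPKM in *Mettl3* OE (log2 difference 0.79, SE 0.17, adjusted p = 0.058). The Nodal co-receptor *Tdgf1* lay at 5.39, 2.08 and 3.41 FPKM in *Mettl14* OE and 1.46, 1.75 and 1.43 FPKM in *Mettl3* OE (log2 difference 0.80, SE 0.28, adjusted p = 0.41). In both the arms did not overlap, with *Mettl14* OE higher, as in 11.8% of all genes.
The homeobox gene *Nanog* was not tested. It lay at 1.72, 0.880 and 1.38 FPKM in *Mettl14* OE and 0.701, 0.498 and 0.555 FPKM in *Mettl3* OE, and at 1.38, 1.37 and 2.39 FPKM in Control OE. *Zfp42*, a zinc-finger marker of the ground state, stood below 1 FPKM in all 9 libraries of day 15, at 0.568, 0.430 and 0.379 FPKM in *Mettl14* OE and 0.103, 0.295 and 0.0249 FPKM in *Mettl3* OE. *Dppa2*, *Dppa3*, *Dppa4*, *Esrrb*, *Gdf3*, *Lin28a* and *Tet1* were likewise below the minimum. Of the 4 reprogramming factors 0 passed in limma (1, *Pou5f1*, at an unadjusted p under 0.05). *Pou5f1* (Oct4) stood at 169, 179 and 155 FPKM in *Mettl14* OE and 130.1, 145 and 137 FPKM in *Mettl3* OE (log2 difference 0.29, SE 0.0947, adjusted p = 0.22), *Sox2* at 75.0 to 83.4 against 68.5 to 77.2 FPKM (adjusted p = 0.67), *Klf4* at 85.2 to 98.3 against 78.9 to 90.2 FPKM (adjusted p = 0.69) and *Myc* at 108 to 119.8 against 98.3 to 107 FPKM (adjusted p = 0.64), in each case the range of *Mettl14* OE first. These genes are also carried by the OSKM transgene, and the table cannot tell transgene from endogenous reads.

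The other large differences were in surface, secreted and metabolic genes. *Gpc3*, a heparan sulfate proteoglycan of the cell surface, lay at 9.85, 11.8 and 9.71 FPKM in *Mettl14* OE and 4.34, 3.77 and 3.26 FPKM in *Mettl3* OE, which is 2.39-fold in FPKM + 1 (log2 difference 1.26, SE 0.0976, adjusted p = 6.6e-07). *Tspan8*, a tetraspanin of epithelial membranes, lay at 16.7, 14.3 and 16.6 FPKM in *Mettl14* OE and 7.03, 7.26 and 6.28 FPKM in *Mettl3* OE (log2 difference 1.10, SE 0.0869, adjusted p = 6.6e-07). Both were called under all 18 alternative settings, as were *Olfm1* and *Sfrp1*. *S100g*, which encodes the calcium-binding calbindin-D9k, was at 2.0995, 1.77 and 1.41 FPKM in *Mettl14* OE and 0, 0.336 and 0.144 FPKM in *Mettl3* OE (log2 difference 1.25, SE 0.13, adjusted p = 2.2e-05), and Control OE, at 0.153, 0.442 and 0.130 FPKM, overlapped *Mettl3* OE. It was the only 1 of the 12 largest increases in which Control OE lay nearer to *Mettl3* OE.
*Hbb-y*, an embryonic globin of the beta cluster, lay at 31.1, 39.8 and 30.2 FPKM in *Mettl14* OE and 15.7, 17.5 and 13.4 FPKM in *Mettl3* OE (log2 difference 1.07, SE 0.12, adjusted p = 4.0e-04), while the listed lymphocyte and erythroid markers summed to less than 1 FPKM in each library. *Trh*, the precursor of thyrotropin-releasing hormone, lay at 3.75, 2.37 and 3.59 FPKM in *Mettl14* OE and 0.648, 1.24 and 1.28 FPKM in *Mettl3* OE (log2 difference 1.04, SE 0.16, adjusted p = 0.013) and lost its call without *Mettl14* OE replicate 3 (adjusted p = 0.072). The progesterone receptor gene *Pgr* lay at 3.46, 2.74 and 2.58 FPKM in *Mettl14* OE and 1.06, 1.27 and 0.793 FPKM in *Mettl3* OE (log2 difference 0.94, SE 0.11, adjusted p = 1.6e-04). In all 3 genes the arms stood apart, as a call nearly requires, and *Pgr* kept its call with any library left out.
*Adh1*, an alcohol and retinol dehydrogenase, lay at 1.84, 2.60 and 2.29 FPKM in *Mettl14* OE and 0.580, 0.832 and 0.669 FPKM in *Mettl3* OE (log2 difference 0.93, SE 0.11, adjusted p = 1.6e-04), and *Olfm1*, a secreted olfactomedin, at 8.90, 6.43 and 7.79 FPKM in *Mettl14* OE and 3.75, 4.08 and 3.31 FPKM in *Mettl3* OE (log2 difference 0.88, SE 0.10, adjusted p = 2.5e-04). *Alox5ap*, needed for leukotriene synthesis in leukocytes, lay at 2.43, 2.06 and 1.16 FPKM in *Mettl14* OE and 0.405, 0.348 and 0.309 FPKM in *Mettl3* OE (log2 difference 1.06, SE 0.15, adjusted p = 0.0027), with the highest level in the library that also had the most macrophage marker RNA, *Mettl14* OE replicate 1. *Cxcl5*, a chemokine for neutrophils, lay at 16.9, 21.4 and 16.7 FPKM in *Mettl14* OE and 8.20, 11.1 and 7.98 FPKM in *Mettl3* OE (log2 difference 0.95, SE 0.13, adjusted p = 0.0035), and its call was lost with all 9 libraries of day 15 in the fit (adjusted p = 0.11) and without a filter (adjusted p = 0.054). With those 9 libraries *Hbb-y* (adjusted p = 0.069) and *Trh* (adjusted p = 0.14) were not called either, and without a filter *Alox5ap* (adjusted p = 0.059) and *Trh* (adjusted p = 0.072) were not.

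**Figure D2:**
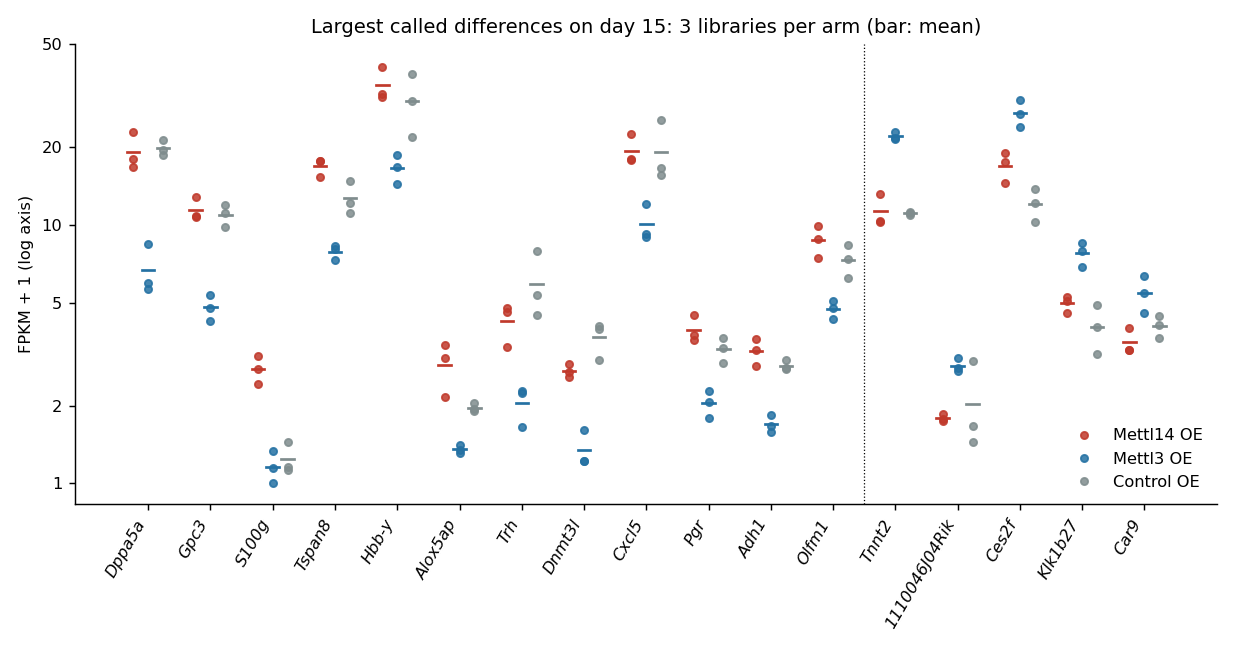
FPKM + 1 on a log axis for the 12 largest called increases (left of the dotted line) and the 5 called decreases in *Mettl14* OE against *Mettl3* OE on day 15, with 1 point per library, 3 libraries per arm, and a bar at the mean. In all 17 genes the red and blue points do not overlap, as a call between these libraries nearly requires. In 11 of the 12 increases Control OE lies nearer to *Mettl14* OE than to *Mettl3* OE on the log2 scale, beside 66.2% of all genes. The genes were chosen by the difference between these arms, so their distance from Control OE partly restates that choice.

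On the lower side *Tnnt2*, cardiac troponin T, had the largest difference. It lay at 9.34, 12.2 and 9.27 FPKM in *Mettl14* OE and 20.5, 20.6 and 21.8 FPKM in *Mettl3* OE (log2 difference -0.98, SE 0.0959, adjusted p = 1.7e-05), while Control OE had 9.89, 10.2 and 10.1 FPKM, and it was called under all 18 alternatives. *Ces2f*, a carboxylesterase gene, lay at 16.5, 17.9 and 13.5 FPKM in *Mettl14* OE and 22.8, 29.4 and 25.7 FPKM in *Mettl3* OE (log2 difference -0.67, SE 0.11, adjusted p = 0.0069). It fell under the 1.5-fold threshold without *Mettl14* OE replicate 3 (log2 difference -0.56) or *Mettl3* OE replicate 2 (-0.58).
*Klk1b27*, a tissue kallikrein, lay at 3.58, 4.08 and 4.28 FPKM in *Mettl14* OE and 6.95, 7.47 and 5.88 FPKM in *Mettl3* OE (log2 difference -0.64, SE 0.0937, adjusted p = 0.0014), and at -0.58 without *Mettl14* OE replicate 1 and -0.57 without *Mettl3* OE replicate 2 it was no longer called. *Car9*, a carbonic anhydrase known as a hypoxia target, lay at 2.98, 2.29 and 2.29 FPKM in *Mettl14* OE and 5.36, 4.43 and 3.54 FPKM in *Mettl3* OE (log2 difference -0.62, SE 0.12, adjusted p = 0.023). It lost its call without *Mettl14* OE replicate 2 (log2 difference -0.58), *Mettl14* OE replicate 3 (adjusted p = 0.13) or *Mettl3* OE replicate 1 (-0.50). The uncharacterised *1110046J04Rik* lay at 0.741, 0.855 and 0.772 FPKM in *Mettl14* OE and 1.72, 2.04 and 1.81 FPKM in *Mettl3* OE (log2 difference -0.67, SE 0.0992, adjusted p = 0.0014). It was not called with the 9 libraries of day 15 (adjusted p = 0.32) or the 48 (adjusted p = 0.12) in the fit. All 5 decreases had arms that did not overlap, as a call nearly requires. *Klk1b27*, *Ces2f*, *Hbb-y*, *Mt2* and *Akr1c14* belong to families of similar genes, whose reads the counting may have split.

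The remaining 22 called increases outside the pluripotency list, named here after their values were seen, fall into a few roles. Of 16 tested secreted Wnt modulators 2 were called higher (0.329% of all genes) and 0 lower (median 0.0792), both of them frizzled-related antagonists. *Sfrp1* lay at 26.6, 27.1 and 28.3 FPKM in *Mettl14* OE and 14.8, 17.9 and 13.6 FPKM in *Mettl3* OE (log2 difference 0.79, SE 0.0944, adjusted p = 1.6e-04) and *Sfrp2* at 11.8, 9.87 and 9.97 FPKM in *Mettl14* OE and 5.23, 6.68 and 4.63 FPKM in *Mettl3* OE (log2 difference 0.84, SE 0.11, adjusted p = 0.0016). For *Sfrp2* both arms were below Control OE, which had 19.03, 15.9 and 20.2 FPKM (-0.74, adjusted p = 0.0099 for *Mettl14* OE and -1.58, adjusted p = 5.0e-06 for *Mettl3* OE).
Among carriers and enzymes of lipids, *Apoe* (19.2 to 24.9 against 11.2 to 13.9 FPKM, 0.78, SE 0.10, adjusted p = 7.9e-04), *Apod* (29.9 to 34.3 against 16.6 to 22.8 FPKM, 0.70, SE 0.10, adjusted p = 0.0025) and the lysophospholipase D gene *Enpp2* (4.36 to 4.95 against 2.15 to 2.65 FPKM, 0.75, SE 0.0909, adjusted p = 1.9e-04) were higher in *Mettl14* OE. So was *Lbp*, the lipopolysaccharide-binding protein of serum (113 to 155 against 65.6 to 72.5 FPKM, 0.87, SE 0.11, adjusted p = 6.1e-04). Transcription factors in the set were the homeobox genes *Alx4* (log2 difference 0.65) and *Msx1* (0.63) and the cell cycle regulator *Mybl2* (0.80).
Signalling genes were *Igf1* (0.62), the natriuretic peptide *Nppc* (0.64), *Tril*, a partner of Toll-like receptors (0.62), and *Rasd1*, a Ras-like gene induced by glucocorticoids (0.59). Enzymes were *Fmo1*, a flavin monooxygenase (0.81), *Akr1c14*, an aldo-keto reductase (0.65), and *Fam46c*, a poly(A) polymerase gene (0.70). The rest were *Mylpf*, a myosin light chain of fast muscle (0.83), *Clec3b*, tetranectin (0.65), the secreted *Fibin* (0.65), the replication gene *Gins1* (0.64), the metal-binding *Mt2* (0.59) and *Laptm5*, a lysosomal gene of blood cells (0.63). All 37 called increases had arms that did not overlap, as a call with 3 against 3 libraries nearly requires. Several calls rested on single libraries. *Rasd1* and *Akr1c14* were called in 1 of the 6 fits with a library left out, that without *Mettl3* OE replicate 2, and in the other fits *Rasd1* had log2 differences of 0.48 to 0.65 and adjusted p of 0.015 to 0.076 and *Akr1c14* log2 differences of 0.54 to 0.70 and adjusted p of 0.011 to 0.15. *Laptm5* was lost without *Mettl14* OE replicate 1 or 2 or *Mettl3* OE replicate 2 or 3 (log2 differences of 0.54 to 0.67 and adjusted p of 0.023 to 0.16) and *Mt2* without replicate 1 of either arm or *Mettl3* OE replicate 3 (log2 differences of 0.52 to 0.58 and adjusted p of 0.012 to 0.037). *Msx1* was lost without replicate 1 of either arm (log2 differences of 0.56 to 0.58 and adjusted p of 0.0032 to 0.013), *Gins1* without replicate 2 of either arm (log2 differences of 0.55 to 0.56 and adjusted p of 0.0041 to 0.015), and *Fibin* without *Mettl14* OE replicate 3 or *Mettl3* OE replicate 2 (log2 differences of 0.52 to 0.59 and adjusted p of 0.0056 to 0.052). *Tril* (without *Mettl3* OE replicate 2), *Nppc* (without *Mettl14* OE replicate 2), *Clec3b* and *Igf1* (without *Mettl3* OE replicate 3) each lost 1, at log2 differences of 0.51, 0.58, 0.56 and 0.53. With median-ratio scaling *Apod*, *Igf1*, *Tril*, *Fibin*, *Gins1*, *Rasd1*, *Akr1c14* and *Laptm5* were not called (adjusted p of 0.056 to 0.093), nor was *Mt2*, at a log2 difference of 0.54. With quantile normalization these 9 and *Msx1* (0.58) were not called. Without the minimum on FPKM *Lbp* (adjusted p = 0.054), *Apoe* (0.056), *Sfrp2* (0.056), *Mybl2* (0.059) and *Fam46c* (0.0998) were not called. Nor were *Nppc*, *Clec3b*, *Apod*, *Msx1*, *Igf1*, *Tril*, *Fibin*, *Mt2*, *Gins1*, *Rasd1*, *Akr1c14* and *Laptm5* in that fit. With the 9 libraries of day 15 *Enpp2* (adjusted p = 0.16), *Fmo1* (0.13), *Igf1* (0.073), *Rasd1* (0.078), *Akr1c14* (0.15) and *Laptm5* (0.19) were not called.

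Levels in Control OE are set beside both arms here as a description. The genes were chosen by the difference between these same *Mettl14* OE and *Mettl3* OE libraries, so a distance of either arm from Control OE partly restates that choice, and nothing is read from the counts against the shares over all genes. Among the 37 called increases, the log2 difference from Control OE had a median of 0.0598 in *Mettl14* OE and -0.76 in *Mettl3* OE. Over all genes tested these medians were -0.0417 and -0.0816. *Mettl3* OE was below Control OE at the adjusted p in 32 of the 37 and above it in 0, where 11.9% of all genes were below and 2.75% above. *Mettl14* OE was above Control OE in 1 (*S100g*) and below it in 1 (*Sfrp2*), where 0.438% of all genes were above and 0.649% below. Control OE lay nearer to *Mettl14* OE in 34 of the 37, beside 66.2% of all genes, and the 3 others were *S100g*, *Fibin* and *Nppc*. In the 5 called decreases it lay nearer to *Mettl14* OE in all 5, and *Mettl3* OE was above Control OE in 4. Both columns use the same 3 Control OE libraries, and no test of 1 column against the other was made. The largest distances of *Mettl3* OE from Control OE were in *Dppa5a* (-1.59, adjusted p = 3.5e-04), *Sfrp2* (-1.58, adjusted p = 5.0e-06), *Trh* (-1.50, adjusted p = 0.0071) and *Dnmt3l* (-1.44, adjusted p = 1.7e-05). For the same genes *Mettl14* OE stood at -0.0565 (adjusted p = 0.88), -0.74 (adjusted p = 0.0099), -0.46 (adjusted p = 0.37) and -0.42 (adjusted p = 0.13).

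**Figure D3:**
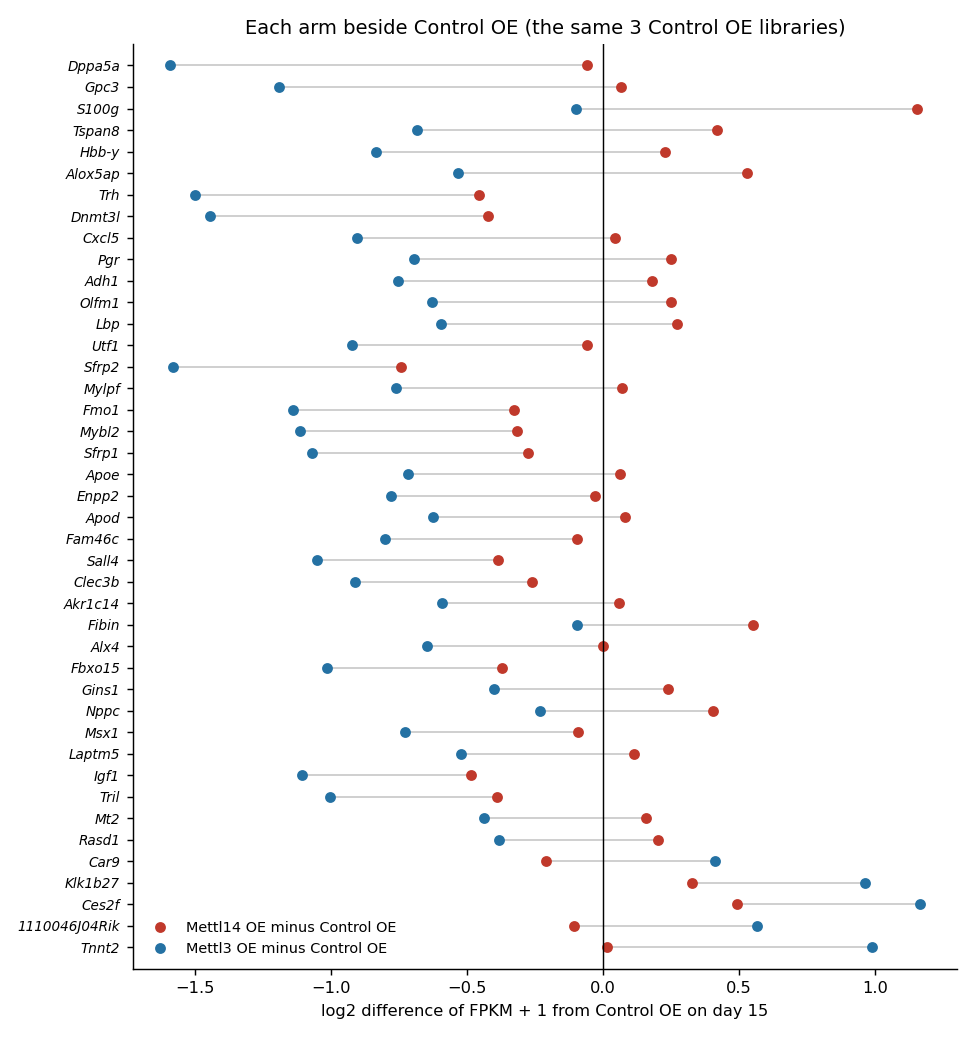
Log2 difference of FPKM + 1 from Control OE on day 15 for *Mettl14* OE (red) and *Mettl3* OE (blue), for the 42 genes called between these arms, ordered by their difference. Red points lie near 0 for most genes (median 0.0598 in the 37 increases), and blue points lie to the left in the increases (median -0.76). Both colours share the same 3 Control OE libraries.

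Macrophage markers had a higher summed level in *Mettl14* OE than in *Mettl3* OE on day 15. Of 18 listed macrophage markers 17 were in the table, and their summed level was 97.0, 62.7 and 50.1 FPKM in *Mettl14* OE, 34.7, 29.0 and 32.2 in *Mettl3* OE, and 76.6, 42.8 and 61.0 in Control OE. All 3 *Mettl14* OE libraries stood above all of *Mettl3* OE, and replicate 1 was the highest. Of 11 tested markers 11 were higher in *Mettl14* OE, with a median log2 difference of 0.86. Of these 9 were at an unadjusted p under 0.05 and 10 had arms apart (11.8% of all genes). Of the 11, 1 passed the adjusted p in limma as higher, *Laptm5* (1.1% of all genes). The median moved with the minimum, to 0.56 over 16 markers without one and 0.34 over 3 at 5 FPKM. *C1qc*, a complement component made by tissue macrophages, lay at 10.9, 6.05 and 4.54 FPKM in *Mettl14* OE and 2.12, 1.49 and 1.69 FPKM in *Mettl3* OE (log2 difference 1.49, SE 0.33, adjusted p = 0.22), and the lysozyme gene *Lyz2* at 30.1, 16.7 and 11.2 FPKM in *Mettl14* OE and 7.69, 5.56 and 7.09 FPKM in *Mettl3* OE (log2 difference 1.29, SE 0.40, adjusted p = 0.39). *C1qa*, another chain of the same complement complex, did not pass either (1.38, SE 0.31, adjusted p = 0.24). Without *Mettl14* OE replicate 1 the median was 0.55 and 3 markers were called, and without *Mettl14* OE replicate 2 the median was 1.05 and 0 were called. With all 48 libraries in the fit 5 of the list were called, and with median-ratio or quantile scaling 0. On day 12 the difference was positive in 1 of 5 tested markers (21.2% of all genes), with a median of -0.12 beside -0.11 over all genes. *Laptm5* had log2 differences of -0.15, -0.21, -0.39 and -0.0589 on days 3, 6, 9 and 12.
Some defining markers had low levels. *Ptprc* (CD45) lay at 0.11 to 0.41 FPKM in the 6 libraries, *Adgre1* (F4/80) at 0.079 to 1.30, and *Lyz1* was listed at 0. The part of macrophage RNA in the differences of *Laptm5*, *Alox5ap* and *Apoe*, genes that macrophages also express, was not tested. Endothelial markers summed to 22.4 to 24.6 FPKM in *Mettl14* OE, 17.7 to 20.001 in *Mettl3* OE and 26.9 to 27.9 in Control OE. Of 4 tested, the receptor gene *Flt1* alone passed as higher (0.42, SE 0.0906, adjusted p = 0.027), beside 1.1% of all genes. Germ cell markers summed to 2.75 to 3.18 against 1.83 to 2.33 FPKM, and neural markers, at 81.5 to 99.0 against 89.2 to 106 FPKM, overlapped.

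Of the SASP factors, which the study followed as products of senescent cells, 1 was called (*Cxcl5*). Of 51 tested factors 5 passed the adjusted p as higher in *Mettl14* OE (1.1% of all genes) and 0 as lower, with a median log2 difference of 0.0763. At an unadjusted p under 0.05 there were 20 (1284 of the 11870 genes), and the arms stood apart in 17 with *Mettl14* OE higher (11.8% of all genes) and in 1 with it lower (3.65%). Besides *Cxcl5* these were *Tnf* (0.54, SE 0.11, adjusted p = 0.026), *Cxcl12*, the ligand of CXCR4 (0.52, SE 0.0970, adjusted p = 0.011), the adhesion receptor *Icam1* (0.47, SE 0.0923, adjusted p = 0.015) and *Igfbp3*, a binding protein of insulin-like growth factors (0.46, SE 0.0992, adjusted p = 0.025). With median-ratio or quantile scaling 2 passed, as without *Mettl14* OE replicate 3, while 8 passed without *Mettl3* OE replicate 2. Without *Mettl14* OE replicate 1, 3 passed, and without the minimum on FPKM 0 of 61. Among members that missed the threshold, the matrix protease *Mmp10* lay at 10.0, 17.6 and 8.70 FPKM in *Mettl14* OE and 5.07, 4.401 and 5.86 FPKM in *Mettl3* OE (log2 difference 1.05, SE 0.29, adjusted p = 0.33) and the chemokine *Ccl8* at 8.25, 3.03 and 1.63 FPKM in *Mettl14* OE and 1.24, 1.51 and 1.16 FPKM in *Mettl3* OE (log2 difference 1.00, SE 0.53, adjusted p = 0.59).
The cytokine *Il6* lay at 4.64, 8.43 and 6.61 FPKM in *Mettl14* OE and 6.87, 7.87 and 5.95 FPKM in *Mettl3* OE, with overlapping arms and Control OE at 3.10, 3.43 and 3.78 FPKM (log2 difference -0.0865, SE 0.20, adjusted p = 0.93, exact two-sided permutation p = 0.8). The neutrophil chemokine *Cxcl1* lay at 97.7, 85.03 and 99.7 FPKM in *Mettl14* OE and 83.5, 81.3 and 66.1 FPKM in *Mettl3* OE (log2 difference 0.29, SE 0.10, adjusted p = 0.27, exact permutation p = 0.1), and *Cxcl2* at 9.45, 12.99 and 12.0 FPKM in *Mettl14* OE and 11.001, 10.6 and 11.5 FPKM in *Mettl3* OE (log2 difference 0.0397, SE 0.0989, adjusted p = 0.93, exact permutation p = 0.8). The monocyte chemokine *Ccl2* lay at 152, 162 and 145 FPKM in *Mettl14* OE and 119, 132 and 138 FPKM in *Mettl3* OE (log2 difference 0.24, SE 0.0953, adjusted p = 0.35, exact permutation p = 0.1), and *Ccl7* at 72.8, 67.6 and 66.9 FPKM in *Mettl14* OE and 55.1, 68.3 and 53.4 FPKM in *Mettl3* OE (log2 difference 0.23, SE 0.10, adjusted p = 0.39, exact permutation p = 0.3). Of the 5 genes 0 passed in limma (3 at an unadjusted p under 0.05), and the exact test cannot give a p under 0.1 with 3 against 3 libraries (adjusted over the 5 genes, 0.25 to 0.8). In *Cxcl1* and *Ccl2* all 3 *Mettl14* OE libraries stood above all of *Mettl3* OE, as in 11.8% of all genes.
Against Control OE both arms were higher in *Cxcl1* (0.66, adjusted p = 0.0043 in *Mettl14* OE and 0.37, adjusted p = 0.024 in *Mettl3* OE), *Cxcl2* (0.82, 6.2e-04 and 0.78, 2.5e-04), *Ccl2* (0.73, 0.0013 and 0.50, 0.0041) and *Ccl7* (0.83, 6.2e-04 and 0.60, 0.0019), each pair giving the log2 difference and then the adjusted p. For *Il6* the values were 0.74 (adjusted p = 0.071) and 0.83 (adjusted p = 0.012). 

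NF-kB drives the transcription of inflammatory genes. Of its 32 tested targets 4 had a higher level in *Mettl14* OE at the adjusted p (1.1% of all genes) and 0 a lower one (median 0.18). The difference was positive in 28 (65.9% of all genes), 14 were at an unadjusted p under 0.05, and in 12 the arms stood apart with *Mettl14* OE higher (11.8%). The 4 were *Cxcl5*, *Tnf*, *Icam1* and *Steap4*, a metalloreductase. With median-ratio or quantile scaling 1 target passed, without *Mettl14* OE replicate 1 or 3, 2 did, as with a minimum of 5 FPKM, and without a minimum 0 did. Complement *C3* (log2 difference 1.14, SE 0.27, adjusted p = 0.26) and the serum amyloid *Saa3* (log2 difference 1.38, SE 0.60, adjusted p = 0.52) had larger differences that did not pass. *Saa3* lay at 20.2, 29.9 and 11.9 FPKM in *Mettl14* OE and 4.67, 14.4 and 4.49 in *Mettl3* OE, with wide spread in both arms and an overlap between them. Of 15 senescence and Ink4/Arf genes 1 passed as higher (1.1% of all genes), the imprinted cell cycle inhibitor *Cdkn1c*. Of 28 p53 targets 1 also did, the apoptosis gene *Pmaip1* (0.36, SE 0.0845, adjusted p = 0.041). *Cdkn1a* (p21) lay at 174, 171 and 159 FPKM in *Mettl14* OE and 174, 185 and 161 FPKM in *Mettl3* OE (log2 difference -0.0436, SE 0.0946, adjusted p = 0.92) and *Cdkn2a* (p16 and Arf) at 99.4, 94.7 and 87.0 FPKM in *Mettl14* OE and 104, 109.5 and 83.4 FPKM in *Mettl3* OE (log2 difference -0.0722, SE 0.11, adjusted p = 0.86). Both overlapped between the arms.

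Interferon-stimulated genes mostly had lower means in *Mettl14* OE, and 0 were called in the fit of the 6 libraries. Of 30 tested genes 26 had a lower mean, 4 a higher one (65.9% of all genes), the median log2 difference was -0.26, and 0 passed in limma at the adjusted p (7 at an unadjusted p under 0.05). Of the 26, *Ifi44* met the minimum through *Mettl3* OE alone and so had to be lower in *Mettl14* OE. The list rested on single libraries. Without *Mettl14* OE replicate 2, 8 genes passed as lower (median -0.36), without *Mettl3* OE replicate 1, 3 did (median -0.33), and without *Mettl3* OE replicate 2, or *Mettl14* OE replicate 3, 0 did (medians -0.0843 and -0.15). With library weights the median turned to 0.0105. *Isg15*, a ubiquitin-like modifier, lay at 5.87, 13.7 and 4.91 FPKM in *Mettl14* OE and 14.0, 26.2 and 13.5 FPKM in *Mettl3* OE (log2 difference -1.10, SE 0.49, adjusted p = 0.53), and *Rtp4* at 1.60, 2.54 and 1.25 FPKM in *Mettl14* OE and 2.51, 5.50 and 3.26 FPKM in *Mettl3* OE (log2 difference -0.75, SE 0.31, adjusted p = 0.49). The antiviral *Oas1a* came nearest to the threshold, at 0.729, 1.31 and 0.979 FPKM in *Mettl14* OE and 1.53, 2.41 and 1.84 FPKM in *Mettl3* OE (log2 difference -0.54, SE 0.13, adjusted p = 0.053). Replicate 2 was the highest library of its arm in all 3 genes, in *Mettl14* OE and in *Mettl3* OE, and the arms overlapped in *Isg15* and *Rtp4*.

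Imprinted growth genes, expressed from 1 parental allele, had 5 of 27 tested members higher at the adjusted p (1.1% of all genes) and 0 lower, and 0 were called (median 0.13). *Peg3* lay at 30.0, 36.4 and 32.4 FPKM in *Mettl14* OE and 23.8, 20.5 and 21.8 FPKM in *Mettl3* OE (log2 difference 0.56, SE 0.0917, adjusted p = 0.0035). *Plagl1* (0.54, SE 0.11, adjusted p = 0.026), *Zdbf2* (0.50, SE 0.0939, adjusted p = 0.01), *Cdkn1c* (0.43, SE 0.0918, adjusted p = 0.025) and *Peg10* (0.39, SE 0.0845, adjusted p = 0.027) followed. *Dlk1*, a Notch-related surface gene, lay at 10.6, 15.0 and 15.5 FPKM in *Mettl14* OE and 7.36, 5.06 and 9.12 FPKM in *Mettl3* OE (log2 difference 0.86, SE 0.25, adjusted p = 0.32) and did not pass. With median-ratio scaling 1 passed, with quantile normalization 2, without *Mettl14* OE replicate 3 or *Mettl3* OE replicate 3 it was 3, and without the minimum 0 of 30.
Of 16 tested genes of trophoblast and placenta 2 passed as higher (1.1% of all genes), *Peg10* and the transcription factor *Tfap2a* (0.38, SE 0.0875, adjusted p = 0.037), with a list median of 0.24. In this list *Prl2c2* met the minimum through *Mettl14* OE alone and so had to be higher there. With median-ratio scaling 0 passed, with quantile normalization 1, and 1 without replicate 1 of either arm or *Mettl3* OE replicate 2. Of 10 tested genes of primitive endoderm all 10 had a higher mean in *Mettl14* OE (median 0.25), where 65.9% of all genes did, and 1 passed (*Apoe*). The laminin chain *Lama1* lay at 3.85, 6.79 and 1.11 FPKM in *Mettl14* OE and 0.223, 0.629 and 0.244 FPKM in *Mettl3* OE (log2 difference 1.67, SE 0.56, adjusted p = 0.41), met the minimum through *Mettl14* OE alone and did not pass, with a spread in *Mettl14* OE as wide as its distance from *Mettl3* OE. *Apoe* is also a gene of macrophages, whose markers are given above.

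**Figure D4:**
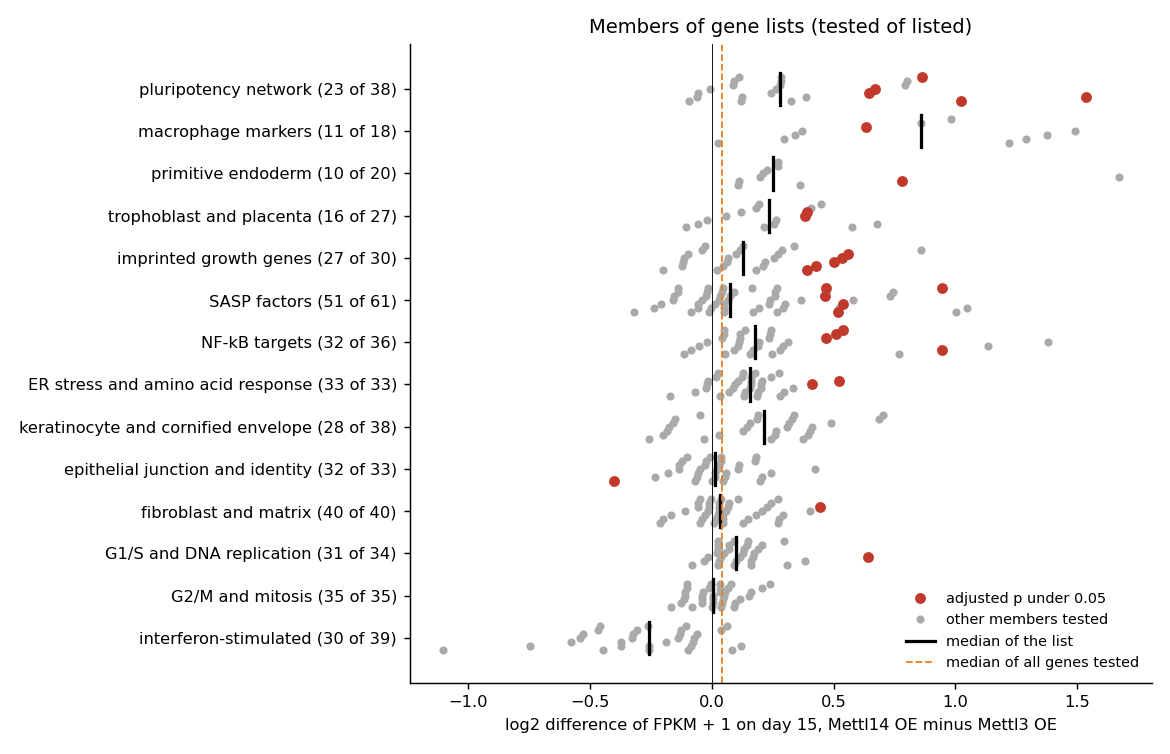
Log2 difference of FPKM + 1 on day 15 (*Mettl14* OE minus *Mettl3* OE) for the tested members of 14 gene lists, 1 point per gene, with the tested and listed numbers beside each name. Red points pass the limma adjusted p of 0.05, black bars are list medians, and the dashed line is the median of all genes (0.0426). The macrophage markers have the highest median (0.86) with 1 red point, and the interferon-stimulated genes the lowest (-0.26) with none.

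Several lists of cell identity and growth had medians near that of all genes, while those of the keratinocyte, muscle and ER stress lists lay above it. Over all genes tested, 1.1% passed the adjusted p as higher and 0.219% as lower. Called were 0.329% as higher and 0.059% as lower. Of 40 fibroblast and matrix genes 1 passed, the proteoglycan *Dcn* (0.44, SE 0.10, adjusted p = 0.041), and *Thy1* was at 119 to 154 against 116 to 126 FPKM (log2 difference 0.20, SE 0.10, adjusted p = 0.49). Of 32 epithelial genes 1 passed, *Rab25*, a GTPase of recycling endosomes, which was lower in *Mettl14* OE (-0.40, SE 0.0850, adjusted p = 0.023). Of 28 keratinocyte genes 0 passed in limma (9 at an unadjusted p under 0.05), with a median of 0.21, and the basal keratin *Krt5* lay at 13.2, 16.6 and 5.89 FPKM in *Mettl14* OE and 6.70, 4.29 and 8.76 FPKM in *Mettl3* OE (log2 difference 0.70, SE 0.47, adjusted p = 0.7). *Cd34* (111 to 127 against 96.5 to 108 FPKM, 0.23, SE 0.0930, adjusted p = 0.37) and *Klk10* (140.3 to 146 against 107 to 144 FPKM, 0.24, SE 0.11, adjusted p = 0.41) did not pass either. Of 13 tested muscle genes 1 was called higher (*Mylpf*) and 1 lower (*Tnnt2*), with a median of 0.16.
Of 31 G1/S and DNA replication genes 28 had a higher mean in *Mettl14* OE (65.9% of all genes, median 0.0989), and 1 passed (*Gins1*), while with median-ratio or quantile scaling 21 had a higher mean and 0 passed. Of 35 genes of G2/M and mitosis 0 passed in limma (2 at an unadjusted p under 0.05, median 0.00435), and the mitotic *Kif2c* lay at 2.59 to 3.39 against 2.02 to 2.497 FPKM (0.24, SE 0.10, adjusted p = 0.39). Of 33 genes of ER stress and the amino acid response 2 passed, the pseudokinase *Trib3* (0.52, SE 0.0929, adjusted p = 0.0069) and the transcription factor *Atf5* (0.41, SE 0.0847, adjusted p = 0.02), beside 1.1% of all genes. The median of this list was 0.16, 28 of its differences were positive (65.9% of all genes), 10 were at an unadjusted p under 0.05 and 10 had arms apart with *Mettl14* OE higher (11.8%). With median-ratio or quantile scaling 1 passed. Of 35 genes of glycolysis and hypoxia the glucose transporter *Slc2a3* passed as higher (0.49, SE 0.0923, adjusted p = 0.01) and *Car9* as lower, and of 32 immediate-early genes *Nr4a3*, a nuclear receptor, passed as higher (0.56, SE 0.10, adjusted p = 0.0096). In cholesterol synthesis (24 tested) and the respiratory chain (40 tested) 0 passed in limma (2 and 1 at an unadjusted p under 0.05), with medians of 0.0805 and 0.0587.

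*Scarna10* had the largest difference of all. It is a small RNA found in Cajal bodies, where such RNAs guide the modification of spliceosomal RNA. It lay at 1088, 1312 and 1136 FPKM in *Mettl14* OE and was listed at 0 in the 3 *Mettl3* OE and the 3 Control OE libraries. *Snora62*, a small nucleolar RNA, lay at 21.4, 16.1 and 12.96 FPKM in *Mettl3* OE and was listed at 0 in the other 6. Such all-or-none values also split replicates of 1 group. In the 42 libraries outside the comparison *Scarna10* was above 0 in 10, at 367 to 1701 FPKM, and at 0 in 32, and 9 of the 16 groups held both kinds. *Snora62* was above 0 in 23 and at 0 in 19, and 10 groups held both. The cause of these splits was not tested, and a fit over the 48 libraries lost both calls (adjusted p = 0.20 and 0.26). Of 33 tested small nucleolar and Cajal body RNAs, *Scarna10* was the only one of the list to pass.

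The libraries of day 12, which the comparison of day 15 does not use, answer whether the differences stood there already. On day 12, 26 of 11763 genes (0.221%) were called higher in *Mettl14* OE and 68 (0.578%) lower, and the median over all genes was -0.11, so values there are read against that shift. After median-ratio scaling 31 were higher and 22 lower, which is 58.5% on the higher side against 27.7% before. These counts rested on single libraries of day 12. They were 4 and 5, 42 and 229, and 3 and 2 without *Mettl14* OE replicates 1, 2 and 3, and 1 and 3, 4 and 7, and 25 and 112 without *Mettl3* OE replicates 1, 2 and 3. Of the 38 genes other than *Mettl14* called higher on day 15, 31 were tested on day 12. The sign was the same in 27 of these, where 21.2% of all differences were positive. Of the 31, 6 were called the same way and 0 the other way (0.221% and 0.578% of all genes). The 6 were *Tspan8* (0.84 on day 12, adjusted p = 0.033), *Apoe* (0.93, 0.035), *Clec3b* (0.76, 0.048), *Apod* (0.63, 0.035), *Fbxo15* (0.66, 0.024) and *Mt2* (0.70, 0.037). Of the called decreases 3 were called on day 12 as well, *Tnnt2* (-1.03, adjusted p = 0.033), *Ces2f* (-1.20, 0.021) and *Klk1b27* (-0.85, 0.037). The median log2 difference of the increases was 0.80 on day 15 (38 genes) and 0.47 on day 12 (31 genes). The genes were chosen by their day 15 values, which favours a larger median on that day, so no growth is read from these medians. *Dppa5a* had a log2 difference of 1.18 on day 12 and did not pass (adjusted p = 0.069), and *Pgr* had -0.0430 (adjusted p = 0.9).

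On the earlier days fewer of the genes reached 1 FPKM. Of the 37 called increases (without *Scarna10*) 8, 16, 25 and 31 met the same minimum on days 3, 6, 9 and 12. The difference was positive in 4, 13, 23 and 27 of them, beside 57.9%, 31.4%, 28.3% and 21.2% of all genes. In day order, the median difference of the increases was -0.0101, 0.43, 0.57 and 0.47, and then 0.79 on day 15. The choice of these genes on day 15 favours a large value there, and the set at the minimum differs by day. All genes at the minimum had medians of 0.0325, -0.0853, -0.101, -0.111 and 0.0426. The arms stood apart, with *Mettl14* OE higher, in 7 of 16 on day 6 (5.66% of all genes), 15 of 25 on day 9 (7.68%) and 18 of 31 on day 12 (3.3%). Of the 5 called decreases 3, 4 and 5 met the minimum on days 6, 9 and 12, with *Mettl14* OE lower in every one. Most genes at the minimum were also lower on these days (7784 of 11353, 8340 of 11637 and 9271 of 11763). The arms stood apart in 2, 3 and 4 of the decreases, where 30%, 23.3% and 33.1% of all genes did so with *Mettl14* OE lower. *Tnnt2* ran from 0.24 on day 3 to -0.33, -0.98, -1.03 and -0.98 on days 6, 9, 12 and 15, and *Tspan8* stood at 0.86, 0.84 and 1.10 on days 9, 12 and 15. *Dppa5a* met the minimum on days 12 and 15. The values of days 3, 6 and 9 carry no test here.

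**Figure D5:**
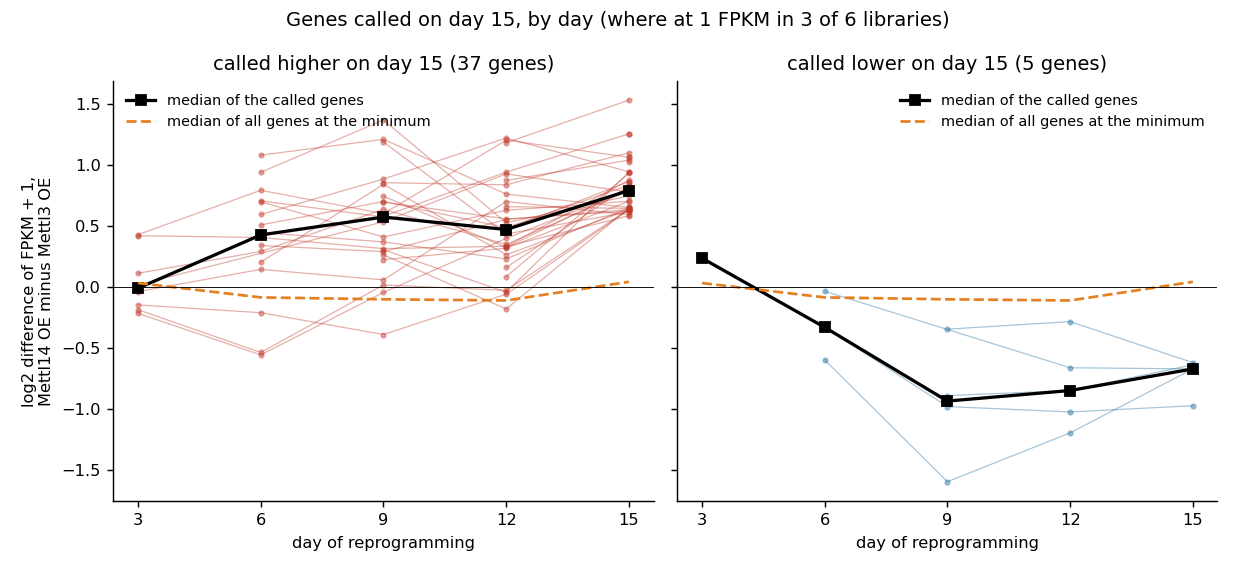
Log2 difference of FPKM + 1 (*Mettl14* OE minus *Mettl3* OE, 3 libraries each) on days 3, 6, 9, 12 and 15 for the 37 genes called higher and the 5 called lower on day 15, drawn where a gene reached 1 FPKM in 3 of 6 libraries. Thin lines are genes, black squares their median, and the dashed line the median of all genes at the minimum. The black line of the increases goes from -0.0101 on day 3 to 0.79 on day 15, and that of the decreases lies between -0.33 and -0.94 from day 6 on. Both sets were chosen by their day 15 values, which favours large differences on that day.

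The change of the difference from day 12 to day 15 was tested in all 12 libraries of these days. Of 12124 genes 2 (0.0165%) were called as rising and 0 (0%) as falling, with 2518 at an unadjusted p under 0.05 (either sign), and the median change was 0.16. None of the genes called on day 15 was called in this test, so their day 15 differences are not shown to differ from those of day 12. The 2 genes were *Calca*, the calcitonin and CGRP precursor, and *Npr3*, the clearance receptor of natriuretic peptides. With median-ratio scaling 0 genes were called, and without *Mettl14* OE replicate 2 of day 12 the count was 98. It was 0 without *Mettl14* OE replicate 3 or *Mettl3* OE replicate 1 of day 12, 1 without *Mettl14* OE replicate 1 or 2 or *Mettl3* OE replicate 3 of day 15 or *Mettl14* OE replicate 1 of day 12, and 4 and 7 without *Mettl14* OE replicate 3 of day 15 and *Mettl3* OE replicate 3 of day 12.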

How the data were processed

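Poly(A) RNA of 48 libraries was sequenced from stranded mRNA kits, and the comparison used 3 libraries each of *Mettl14* OE, *Mettl3* OE and Control OE on day 15 and of both overexpression arms on days 3 to 12. The authors deposited FPKM values per gene. The submitters' processing notes name TopHat2 2.1.1, Cufflinks 2.2.1 and mm9. Of its lines, 27 carry labels that spreadsheet software had turned into dates and name no gene here. The table has no counts. Depth was therefore estimated, by a method chosen after seeing the data, from the most common smallest FPKM step in 2178 genes with 1 transcript of 1500 to 8000 nt, less an assumed fragment length of 200 nt, and the errors derived from it cover counting only. Values were tested as log2(FPKM + 1), a scale that understates changes of low genes, with limma 3.58.1 in R 4.3.3 (robust empirical Bayes, trend with level, Benjamini-Hochberg over all tested genes). Genes needed 1 FPKM in 3 of the 6 libraries, and a call needed 1.5-fold and an adjusted p under 0.05. Single genes were tested by exact two-sided permutation (scipy 1.17.1). The fit was tested on simulated data with independent noise per gene and no shift between libraries. Changes were placed only in genes above a set mean level, so that test does not cover the lowest genes or single deviating libraries. Alternatives covered the pseudocount, the filter, 3 scalings, the libraries in the fit, moderation, library weights, the replicate number as a block and leaving out each library. Named were the overexpressed genes, the 12 largest called differences in each direction, up to 4 members of each list and a fixed set of reprogramming, SASP and senescence genes. Counts of 5 or fewer were also named after their values were seen. The members and the lists were chosen with earlier results of these data known.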

Additional observations from a re-analysis of the deposited data

Results flagged for a closer look

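In 2 genes the difference between the arms changed from day 12 to day 15 by a test of that change (limma on log2(FPKM + 1), 12 libraries). *Calca* lay at 3.95, 2.69 and 2.74 FPKM in *Mettl14* OE and 1.93, 1.54 and 2.82 FPKM in *Mettl3* OE on day 15, where the arms overlapped, and at 2.05, 1.74 and 1.58 against 5.49, 5.18 and 5.56 FPKM on day 12. The log2 difference went from -1.20 to 0.42, a change of 1.63 (SE 0.20, adjusted p = 0.017, 0.00077 to 0.093 over the alternatives). *Npr3* lay at 1.40, 1.51 and 1.22 against 0.927, 1.11 and 0.900 FPKM on day 15 and at 1.51, 1.81 and 1.19 against 2.97, 3.15 and 2.75 FPKM on day 12. Its log2 difference went from -0.67 to 0.26, a change of 0.93 (SE 0.14, adjusted p = 0.049, 0.017 to 0.16 over the alternatives). The median change over all genes was 0.16, and after median-ratio scaling both changes had an adjusted p of 0.065.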

How the results depend on the processing

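Of the 46 genes called on day 15, 0 changed direction in up to 18 alternatives, 27 were called with any 1 library left out and 13 in every alternative that tested them. Genes called higher and lower (39 and 7) became 63 and 11 with a pseudocount of 0.5, 72 and 12 with 0.1, 17 and 4 without a filter, 18 and 5 with a minimum of 5 FPKM, 60 and 8 with library weights, and 47 and 4 with all 48 libraries in the fit. Leaving out 1 library gave 42 to 61 higher and 6 to 17 lower. For day 12 (26 and 68) the counts were 36 and 117 with a pseudocount of 0.1, 17 and 58 with a minimum of 5 FPKM, 31 and 22 with median-ratio scaling, 38 and 26 with quantile normalization (59.4% higher), and 1 to 42 and 2 to 229 with 1 library left out. For the change (2 and 0) they were 1 with a pseudocount of 0.1, 0 with median-ratio scaling and 0 with quantile normalization, and 0 to 98 and 0 to 2 with 1 library left out. Several genes without a call changed sign. *Il6* was at 0.14 with library weights and -0.26 to 0.11 with 1 library left out, at 0.00115 without *Mettl3* OE replicate 2. *Cxcl2* was at -0.00557 with median-ratio scaling, -0.00453 with quantile normalization, -0.00851 with equal sums and -0.0486 to 0.16 with 1 library left out. Those ranges were -0.0964 to 0.00632 for *Cdkn1a* and -0.19 to 0.00432 for *Cdkn2a*. The cause of these moves was not tested.

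On day 15, deviations of replicates that share a number had correlations of 0.16, -0.0301 and -0.0162 between *Mettl14* OE and *Mettl3* OE. These 3 values do not settle whether samples with the same number were paired. With the number as a replicate block 51 and 10 genes were called on day 15, 35 and 106 on day 12 and 71 and 4 in the change. *Dppa5a* (adjusted p = 0.17) and *Utf1* (0.20) lost their calls in that fit, and *Lcn2*, *Tnfrsf11b*, *Isg15*, *Rtp4*, *C1qc* and *C1qa* gained one. By list, 3 pluripotency genes and 6 macrophage markers were then called higher, and 8 interferon-stimulated genes passed as lower, 2 of them called. Of the 3 pairs, replicate 1 alone correlated best with its own number. Levels near 1 FPKM rest on about 20 fragments, which limits what the low genes can show.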
